A study of Drosophila melanogaster with 35 samples.

Results

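A group of genes of ribosome assembly, 10 of the 17830 gene rows measured in fly heads, were followed across KDM5 strains of *Drosophila melanogaster*: *Fib*, *hoip*, *Nop60B*, *Gar1*, *Nopp140*, *mbm*, *Nnp-1*, *peng*, *Ns2* and *Ns3*. They were taken by name, and the names were chosen from earlier results of these libraries, in which *Fib*, *Ns2* and *Ns3* were among the genes with lower counts in A224T and L854F heads. The folds of those strains over WT, for these and all other genes, are therefore given as a description without p-values. Counts of genes past the threshold are printed for them, but nothing is read from those counts. All 10 had counts in every head library and passed the filter on low counts, which kept 12093 genes. The lowest count of any of them was 25, for *mbm* in D234G library 1.

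Ribosomes are assembled in the nucleolus, where RNA polymerase I transcribes the ribosomal RNA (rRNA) precursor. Small nucleolar ribonucleoproteins (snoRNPs) modify this RNA. Those of the box C/D class methylate riboses through fibrillarin, and those of the box H/ACA class make pseudouridine through dyskerin, while many further factors fold, cut and export the precursors of the 40S and 60S subunits. Neurons of adult heads are post-mitotic and need this machinery to replace ribosomes.

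KDM5 is the single fly member of the histone H3 lysine demethylase family to which human KDM5C belongs. RNA-seq was done on whole heads of flies 1 to 5 days after eclosion. The strains A224T, L854F, D234G, R873W and Y874C model KDM5C changes found in Claes-Jensen syndrome, an intellectual disability, and JmjC is a synthetic strain without demethylase activity. There were 3 libraries of each strain, and 5 libraries of WT, the strain with wild-type KDM5. In a second experiment, ribosome footprints and RNA were compared between kdm5 RNAi knockdown and control heads, 3 libraries of each kind, with RPL3-FLAG and elav in both genotypes and neurons as the labelled cell type. The sources used here do not say how the alleles were made, which sex the flies were, or whether replicates came from separate cultures. The p-values therefore cover only the variation among these libraries, which may be technical.

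The 23 head libraries fell into 2 sets. lncRNA:roX2, which belongs to the complex that raises X expression in males, was at 0.142 to 0.941 CPM (read counts relative to library size, scaled by TMM) in the 12 libraries of A224T, L854F, JmjC and WT 3 to 5. It was at 19.5 to 40.4 CPM in the 11 libraries of D234G, R873W, Y874C and WT 1 and 2. The labels do not name this division, which is called set 2 and set 1 here. Each strain was compared with the WT libraries of its own set. Within set 2, lncRNA:roX1, its partner RNA, also differed. It averaged 199.2 ± 19.0 CPM in A224T, 90.6 ± 4.6 in L854F and 297.6 ± 34.4 in JmjC, against 13.4 ± 0.687 CPM in WT 3 to 5 (SD, n = 3 each), and its part in the results of set 2 was not tested.

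Library totals were 16993554 to 32985353 counts, except for D234G 1 with 3803077 and D234G 2 with 4960383. Transcripts of testis and accessory gland were seen in 2 of the 3 D234G libraries and in all R873W libraries. The summed level of those 13 markers spanned 0.613 to 668.8 CPM in D234G and 12.2 to 320.5 CPM in R873W, against 0.104 to 0.414 CPM in WT 1 and 2. Markers of ovary and female germline, 9 in all, summed to 9.81 to 13.1 CPM in A224T, 2.47 to 6.68 in L854F and 2.07 to 3.26 in JmjC, against 1.08 to 1.37 CPM in WT 3 to 5. In set 1 they summed to 10.8 CPM in D234G 2 and 21.1 CPM in WT 2, against 1.35 CPM in WT 1, and to at most 1.56 CPM in the other libraries. The part of these transcripts in the results, many of which rest on WT 2 in set 1, was not tested. Markers of neurons, glia and photoreceptors were detected in every group, as the label of heads requires. *Kdm5* itself averaged 519.6 ± 21.3 CPM in A224T, 537.7 ± 26.3 in L854F and 453.6 ± 18.3 in JmjC, against 491.6 ± 43.7 in WT 3 to 5 (SD, n = 3 each). It averaged 549.5 ± 25.8 CPM in D234G, 572.2 ± 5.54 in R873W and 523.5 ± 18.1 in Y874C (n = 3 each), against 467.4 ± 9.28 in WT 1 and 2 (n = 2). The strains carry altered proteins, so the level of the transcript does not check the allele.

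All 10 genes had a fold below 0 over same-set WT in D234G, R873W and Y874C, but how many passed the test differed widely between these strains. The 10 folds were also below 0 in A224T, L854F and JmjC, where the choice of names favoured that, and nothing is read from those signs. A gene was called at an adjusted p under 0.05 by the quasi-likelihood test of edgeR, adjusted by Benjamini-Hochberg over the 12093 genes. In A224T 8 of the 10 were called lower and 0 higher, where 9.2% of all genes tested were called lower and 8.46% higher. In L854F 10 were called lower, against 5.71% of all genes (5.63% were called higher). In both strains these counts rest on the contrasts that chose the names, and nothing is read from them. In JmjC, which shares WT 3 to 5 with those 2 strains, 8 were called lower, against 14.2% of all genes (11.4% higher). Lower values in JmjC were thus favoured by the choice of names too. The JmjC p-values below do not allow for that, and nothing is read from this count. Against WT 1 and 2, 3 of the 10 were called lower in JmjC, where 2405 of all genes tested were called lower.

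Among the strains of set 1, R873W had 9 of the 10 called lower, where 18.8% of all genes were called lower and 18.9% higher. D234G had 5 called lower, where 10.7% of all genes were called lower and 20.3% higher, and 2 without WT 1, 3 without WT 2 and 3 without D234G 3. Y874C had 1 called lower, *mbm*, where 5.93% of all genes were called lower and 6.85% higher. None of the 10 was called higher in any of these 3 strains. The median log2 fold of the 10 was -0.55 in A224T, -0.55 in L854F, -0.42 in JmjC, -0.22 in D234G, -0.46 in R873W and -0.18 in Y874C, beside medians over all genes of 0.0013 to 0.023.

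**Figure D1:**
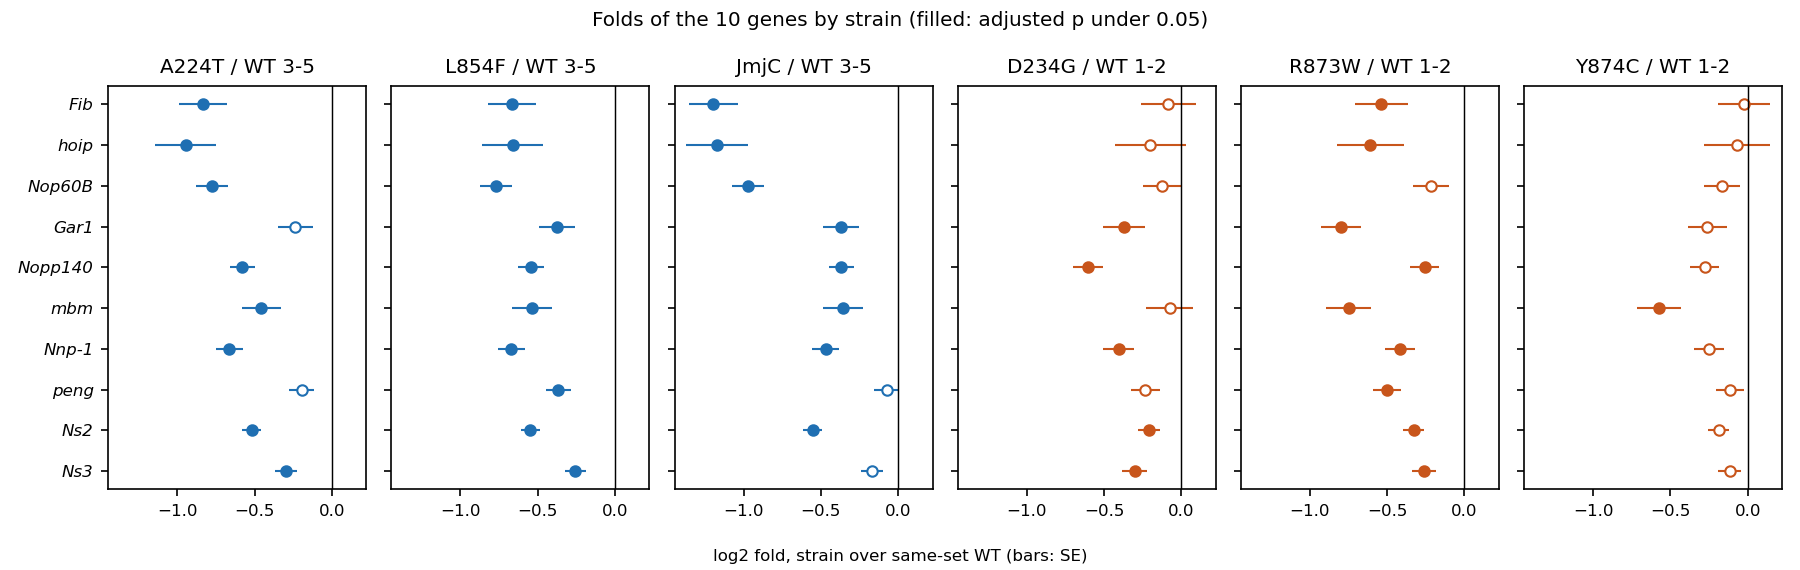
log2 fold of each of the 10 genes (down the page) in each strain over the WT libraries of its set (panels, x axis), with the standard error of the fit as bars. Filled points have an adjusted p under 0.05. Every point lies left of 0. The R873W panel has 9 filled points and the Y874C panel has 1. Nothing is read from the filling or the side of 0 in the A224T, L854F and JmjC panels.

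The WT libraries of the sets differed from each other in most of the same genes. WT 3 to 5 had 7 of the 10 genes called higher than WT 1 and 2, of the same genotype, with a median log2 fold of 0.44, where 27.6% of all genes were called in either direction. WT 3 to 5 are also the control in the contrasts that chose the names, so high levels there were favoured by the choice. The p-values of this comparison for the 10 genes do not allow for that, and nothing is read from its calls. *Nop60B* differed most, at 75.1 ± 3.19 CPM in WT 3 to 5 and 42.6 ± 7.57 in WT 1 and 2, a log2 fold of 0.82 ± 0.12 (SE, edgeR adjusted p = 4.0e-05). *Nnp-1* (0.53 ± 0.10, adjusted p = 0.00051), *Ns2* (0.43 ± 0.07, adjusted p = 0.00013), *Nopp140* (0.45), *Gar1* (0.49), *mbm* (0.58) and *peng* (0.27) were the other genes called, all in that edgeR fit. Without WT 1 the number called was 4, and *peng* lost its call without WT 2, 3 or 4. *Ns3* (-0.04), *Fib* (0.23) and *hoip* (0.25) did not pass.

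Cell type markers moved with the same division. The summed level of the 6 head fat body markers, which include the yolk protein genes, was 42103 to 50493 CPM in WT 3 to 5 and 7797 to 9152 CPM in WT 1 and 2. That of 5 antennal markers was 1047 to 1206 CPM in WT 3 to 5 and 697.6 to 753.4 CPM in WT 1 and 2. Their part in the differences between WT libraries was not tested, and in whole heads fewer cells of a type and less RNA per cell cannot be told apart.

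When each strain was set against the WT libraries of the other set, an alternative added after the data were seen, A224T had 3 of the 10 called lower (median -0.11), L854F had 1 (-0.11) and JmjC had 3 (-0.03). D234G then had 8 called lower (median -0.64), R873W had 10 (-0.81) and Y874C had 7 (-0.67). Over all genes, 1829 were called lower in A224T, 1534 in L854F, 2405 in JmjC, 2773 in D234G, 2972 in R873W and 2102 in Y874C. With WT of the same set these were 1112, 690, 1720, 1295, 2270 and 717 in that order. Nothing is read from the change in counts between controls. With all 5 WT libraries as control the counts among the 10 were 6 in A224T, 5 in L854F, 5 in JmjC, 8 in D234G, 10 in R873W and 7 in Y874C. All genes called lower then numbered 916, 412, 1785, 2292, 2639 and 1213 in the same order of strains. No gene of the 10 was called higher in a strain under any of the 3 choices of control. Under all 3 choices the genes called were *Fib* and *hoip* in JmjC, the same 5 genes in D234G, the same 9 in R873W and *mbm* in Y874C. For A224T and L854F, nothing is read from the calls under any control, since the names were chosen from these libraries. Genes high in WT 3 to 5 were favoured by that choice, so calls in other strains that use WT 3 to 5 are limited by it too.

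**Figure D2:**
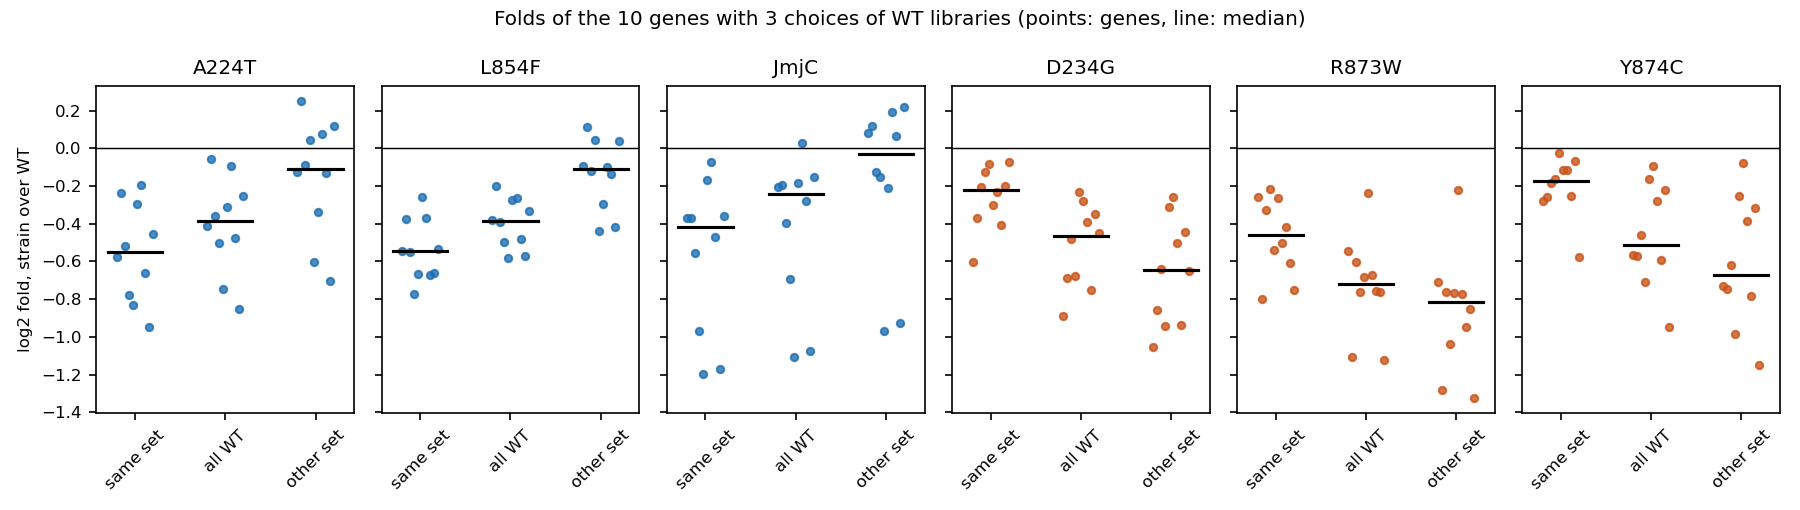
log2 folds of the 10 genes (points) in each strain over 3 choices of WT libraries (x axis): those of the same set, all 5, and those of the other set. The line is the median; in A224T it is -0.55, -0.39 and -0.11, and in Y874C it is -0.18, -0.51 and -0.67.

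The box C/D genes had the lowest folds of the 10 in A224T and JmjC. *Fib* (FBgn0003062, dm6 chr2R:23072909-23074725, minus strand) encodes fibrillarin, the methyltransferase of box C/D snoRNPs. Its level was 14.4, 20.2 and 16.1 CPM in A224T, 18.9, 19.6 and 18.4 CPM in L854F, and 11.5, 14.4 and 13.6 CPM in JmjC, against 36.5, 31.6 and 22.3 CPM in WT 3 to 5. All 9 strain libraries lay below the 3 WT libraries, of which WT 5 was the lowest. The log2 fold of *Fib* was -0.83 ± 0.15 in A224T and -0.67 ± 0.15 in L854F (SE). In JmjC it fell by 1.20 ± 0.16 on the log2 scale (edgeR adjusted p = 2.2e-05), the lowest fold of the 10 genes in any strain.

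In set 1 *Fib* was at 24.5, 20.2 and 27.1 CPM in D234G, 16.4, 18.6 and 18.2 CPM in R873W, and 21.6, 26.5 and 27.8 CPM in Y874C, against 24.4 and 27.0 CPM in WT 1 and 2. Only the R873W libraries lay wholly below WT. *Fib* fell by 0.54 ± 0.17 (SE) on the log2 scale in R873W (edgeR adjusted p = 0.019), a call that was lost without R873W 1 or without WT 2. Its log2 folds in D234G (-0.08 ± 0.18) and Y874C (-0.02 ± 0.17) did not pass (adjusted p = 0.78 and 0.96, edgeR).

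*hoip* (FBgn0286786, dm6 chr2L:9699791-9700459) encodes the small RNA-binding protein that nucleates box C/D snoRNPs and also sits in the U4 snRNP of the spliceosome. Its level was 7.44, 8.84 and 7.18 CPM in A224T, 10.2, 9.46 and 8.87 CPM in L854F, and 6.27, 8.54 and 5.27 CPM in JmjC, against 18.6, 15.7 and 10.9 CPM in WT 3 to 5. WT 5 was again the lowest WT library and stood close to the L854F values. The log2 fold of *hoip* was -0.95 ± 0.20 in A224T and -0.66 ± 0.20 in L854F (SE), and in JmjC *hoip* fell by 1.17 ± 0.20 (edgeR adjusted p = 0.00027).

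In set 1, *hoip* fell by 0.61 ± 0.22 (SE) in R873W (edgeR adjusted p = 0.033), with 9.11, 8.80 and 7.09 CPM in R873W and 10.2 and 15.2 CPM in WT 1 and 2. That call was lost without R873W 2, without R873W 3 or without WT 2. In D234G (-0.20) and Y874C (-0.07) the fold of *hoip* did not pass (edgeR adjusted p = 0.56 and 0.89). The remaining core proteins of this particle, *nop5* and *Nop56*, were called lower in JmjC and in no strain of set 1. *Nop56* had log2 folds of -0.91 in A224T and -0.88 in L854F, and fell by 0.81 ± 0.13 in JmjC (SE, edgeR adjusted p = 0.00013). *nop5* had log2 folds of -0.87 ± 0.15 in A224T and -0.81 ± 0.15 in L854F (SE). It fell by 1.12 ± 0.15 in JmjC (edgeR adjusted p = 2.5e-05), and its folds in set 1 were -0.25 to -0.14. *nop5* and *Nop56* were also higher in WT 3 to 5 than in WT 1 and 2, by log2 folds of 0.93 and 0.87.

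**Figure D3:**
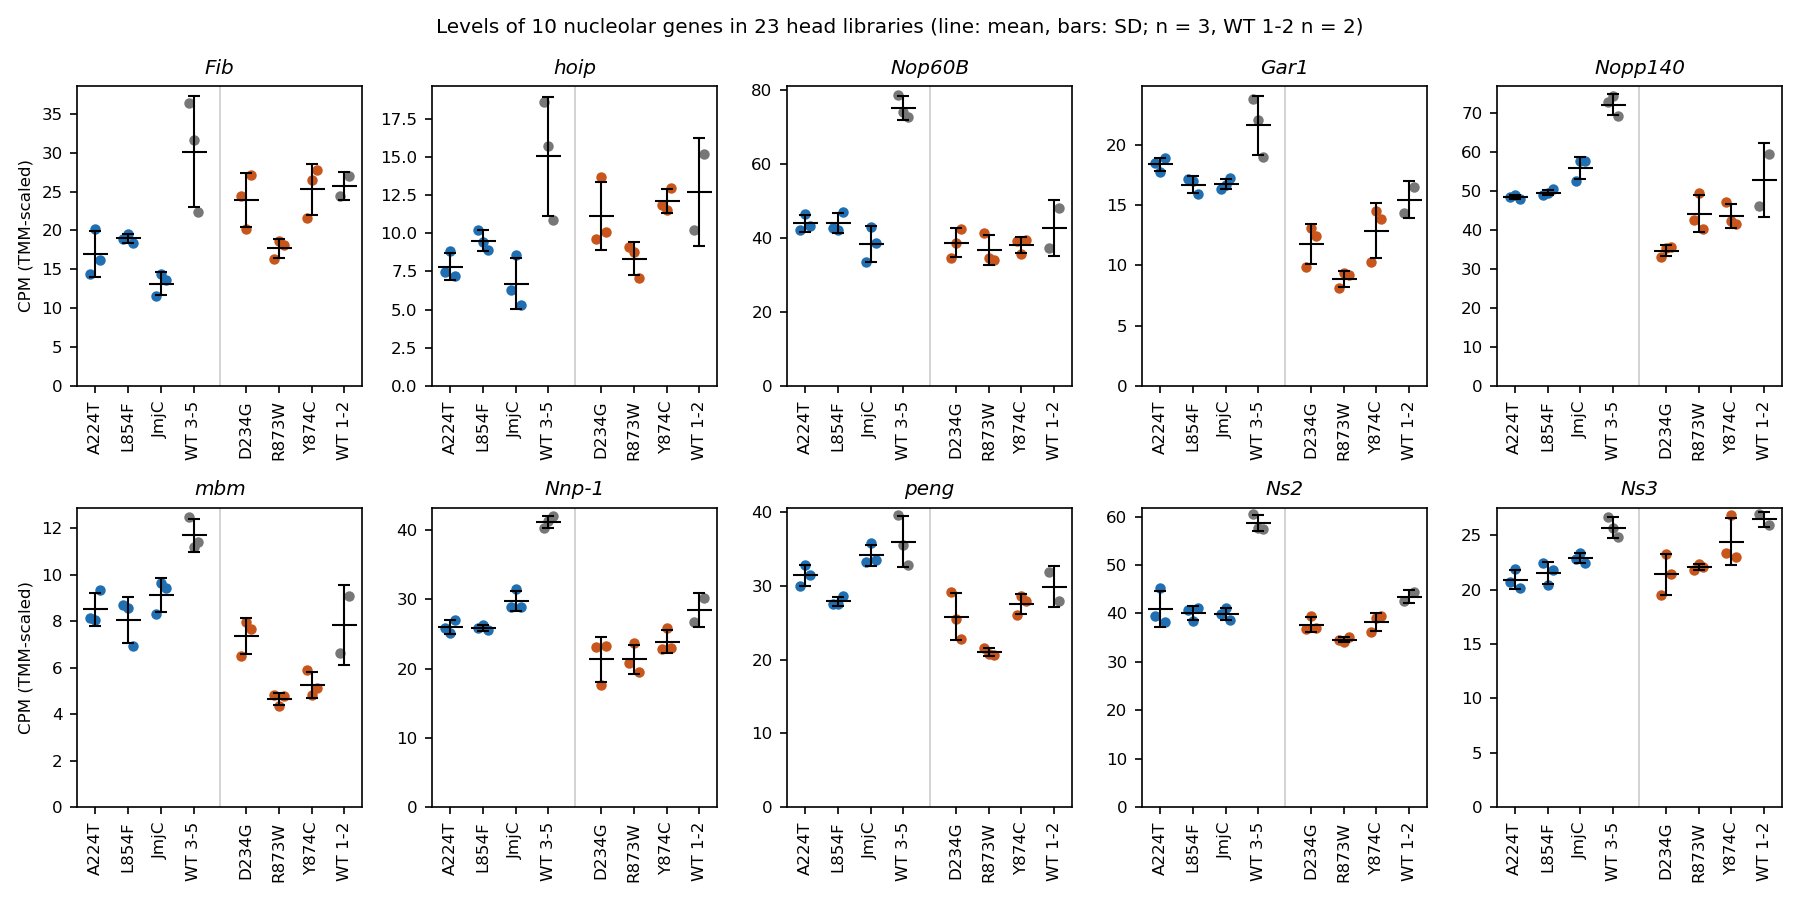
Level of each of the 10 genes in every head library (points), in CPM scaled by TMM on a linear axis from 0, with group mean and SD. Strains of set 2 stand left of WT 3 to 5 and strains of set 1 left of WT 1 and 2. *Nop60B* lies at 33.3 to 47.9 CPM in 20 libraries and at 72.5 to 78.6 CPM in WT 3 to 5.

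Of the box H/ACA genes, *Nop60B* (FBgn0259937, dm6 chr2R:24174877-24186343) encodes the fly dyskerin, the pseudouridine synthase. It was at 42.1, 46.4 and 43.1 CPM in A224T, 42.7, 42.1 and 47.0 CPM in L854F, and 33.3, 43.0 and 38.6 CPM in JmjC, against 78.6, 74.0 and 72.5 CPM in WT 3 to 5. No strain library came near the WT range. The log2 fold was -0.78 ± 0.10 in A224T and -0.77 ± 0.10 in L854F (SE), and *Nop60B* fell by 0.97 ± 0.10 in JmjC (edgeR adjusted p = 2.5e-06).

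In set 1 the levels of *Nop60B* were 34.6, 38.6 and 42.4 CPM in D234G, 41.3, 34.5 and 34.0 CPM in R873W, and 39.2, 35.5 and 39.3 CPM in Y874C, against 37.2 and 47.9 CPM in WT 1 and 2. These groups overlapped, and the folds of -0.13, -0.22 and -0.16 in D234G, R873W and Y874C did not pass (edgeR adjusted p = 0.47, 0.15 and 0.41). The *Nop60B* levels of A224T, L854F and JmjC lay within or near the range of the set 1 libraries, and WT 3 to 5 stood above all others. Set against WT 1 and 2, its log2 fold was 0.04 in A224T, 0.05 in L854F and -0.15 in JmjC (edgeR adjusted p = 0.82, 0.81 and 0.32).

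*Gar1* (FBgn0011824, dm6 chr2R:21095958-21097305), which encodes a protein that binds dyskerin, ran in another order. It was lowest in R873W, at 8.13, 9.39 and 9.17 CPM, against 14.4 and 16.5 CPM in WT 1 and 2, and fell there by 0.80 ± 0.13 (SE) on the log2 scale (edgeR adjusted p = 0.00014). *Gar1* was at 9.89 to 13.1 CPM in D234G and 10.3 to 14.5 CPM in Y874C, with log2 folds of -0.37 ± 0.14 (edgeR adjusted p = 0.048) and -0.26 ± 0.13 (adjusted p = 0.21). In JmjC it was at 16.4 to 17.2 CPM, against 19.0 to 23.8 CPM in WT 3 to 5, and fell by 0.37 ± 0.12 (SE, edgeR adjusted p = 0.023). The log2 fold of *Gar1* was -0.24 ± 0.11 in A224T and -0.37 ± 0.11 in L854F. The D234G call of *Gar1* was lost without D234G 1, D234G 3 or either WT library, and the JmjC call without any 1 of the JmjC libraries, WT 3 or WT 4.

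*Gar1* overlaps *CG34396* in the annotation, and whether reads were counted by strand is not stated. *CG34396* was called higher in D234G (log2 fold 0.55), R873W (0.75) and Y874C (0.72), the opposite direction to *Gar1*, and its log2 fold in A224T was 0.31. The other box H/ACA proteins measured were *NHP2* and *Nop10*. Both were called lower in JmjC (-0.63 and -0.81) and in R873W (-0.92 and -0.89), *Nop10* also in Y874C (-1.02), and neither in D234G.

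*Nopp140* (FBgn0037137, dm6 chr3L:21832774-21836685) encodes a phosphoprotein that chaperones both snoRNP classes in nucleoli and Cajal bodies. It was at 33.1, 35.4 and 35.5 CPM in D234G, 42.6, 49.5 and 40.3 CPM in R873W, and 47.1, 42.1 and 41.3 CPM in Y874C, against 46.1 and 59.4 CPM in WT 1 and 2. D234G alone of these 3 strains lay clear of WT, and *Nopp140* fell there by 0.60 ± 0.10 (SE) on the log2 scale (edgeR adjusted p = 0.00028). In R873W it fell by 0.26 ± 0.09 (adjusted p = 0.036), lost without R873W 1, R873W 3 or WT 2, and in Y874C the fold of -0.28 ± 0.09 did not pass (adjusted p = 0.056, both edgeR).

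*Nopp140* levels in set 2 were 48.3, 48.8 and 47.8 CPM in A224T, 48.8, 49.3 and 50.3 CPM in L854F, and 52.6, 57.5 and 57.6 CPM in JmjC, against 72.8, 74.3 and 69.1 CPM in WT 3 to 5. No strain library overlapped WT. The log2 folds were -0.58 ± 0.08 in A224T and -0.54 ± 0.08 in L854F (SE), and *Nopp140* fell by 0.37 ± 0.08 in JmjC (edgeR adjusted p = 0.0030). *Nopp140* overlaps *P5CDh1*, which had 334.9 to 489.4 CPM as group means, not corrected for length. *P5CDh1* itself was called lower in JmjC (-0.26) and in no other strain against WT.

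For the 40S subunit, *mbm* (FBgn0086912, dm6 chr2L:271912-273715) encodes a nucleolar protein of neural progenitors that is needed for small subunit assembly. It was the only gene of the 10 called in Y874C. Its level was 6.51, 7.97 and 7.68 CPM in D234G, 4.84, 4.36 and 4.79 CPM in R873W, and 5.89, 4.81 and 5.12 CPM in Y874C, against 6.62 and 9.07 CPM in WT 1 and 2. The R873W and Y874C libraries all lay below both WT libraries, while D234G straddled the lower one.

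*mbm* fell by 0.75 ± 0.14 (SE) on the log2 scale in R873W (edgeR adjusted p = 0.00064) and by 0.57 ± 0.14 in Y874C (adjusted p = 0.011), and had a log2 fold of -0.07 ± 0.15 in D234G (adjusted p = 0.81). The call in Y874C was lost without Y874C 2 or WT 2. In set 2 *mbm* spanned 8.06 to 9.35 CPM in A224T, 6.93 to 8.71 in L854F and 8.31 to 9.63 in JmjC, against 11.2 to 12.5 CPM in WT 3 to 5. It fell by 0.36 ± 0.13 in JmjC (edgeR adjusted p = 0.046, lost without any 1 of the JmjC or WT libraries), and its log2 fold was -0.46 ± 0.13 in A224T and -0.54 ± 0.13 in L854F.

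For the 60S subunit, *Nnp-1* (FBgn0022069, dm6 chr2L:13363308-13366189) encodes the relative of yeast Rrp1, a factor of early large subunit precursors in yeast. It ranged over 25.1 to 27.1 CPM in A224T libraries, 25.5 to 26.3 in those of L854F and 28.9 to 31.4 in those of JmjC, against 40.3 to 41.9 in WT 3 to 5. *Nnp-1* fell by 0.47 ± 0.09 (SE) in JmjC (edgeR adjusted p = 0.00055), and had log2 folds of -0.66 ± 0.09 in A224T and -0.67 ± 0.09 in L854F. In set 1 it was at 17.6 to 23.2 CPM in D234G, 19.6 to 23.6 CPM in R873W and 22.8 to 25.8 CPM in Y874C, against 26.8 and 30.2 CPM in WT 1 and 2. It fell by 0.41 ± 0.10 in D234G and by 0.42 ± 0.10 in R873W (edgeR adjusted p = 0.0057 and 0.0028, both lost without WT 2), and the fold of -0.25 ± 0.10 in Y874C did not pass (adjusted p = 0.096).

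*peng* (FBgn0015527, dm6 chrX:21346503-21349843) encodes a Pumilio-repeat protein whose yeast relative Puf6 takes part in large subunit assembly. It was at 22.8 to 29.2 CPM in D234G, 20.7 to 21.6 CPM in R873W and 26.1 to 28.7 CPM in Y874C, against 27.9 and 31.8 CPM in WT 1 and 2. R873W lay lowest, with a fall of 0.50 ± 0.09 (SE, edgeR adjusted p = 0.00034), while D234G (-0.23) and Y874C (-0.11) did not pass (adjusted p = 0.073 and 0.47). Its fold in JmjC was -0.08 ± 0.08 (adjusted p = 0.55, edgeR), with 33.2 to 35.8 CPM in JmjC and 32.8 to 39.7 CPM in WT 3 to 5. The log2 fold of *peng* was -0.20 ± 0.08 in A224T and -0.37 ± 0.08 in L854F. *peng* overlaps *dod*, which was itself called lower in R873W (-0.98) and in no other strain against WT.

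The last pair are GTPases. *Ns2* (FBgn0034243, dm6 chr2R:17565779-17568456) is the relative of Nog2, a GTPase of the nuclear 60S precursor in yeast. It was at 39.4, 45.2 and 38.1 CPM in A224T, 40.7, 38.5 and 41.0 CPM in L854F, and 39.9, 41.1 and 38.7 CPM in JmjC, against 60.5, 57.7 and 57.5 CPM in WT 3 to 5. The 9 strain libraries overlapped one another and none reached WT. *Ns2* fell by 0.55 ± 0.06 (SE) in JmjC (edgeR adjusted p = 3.7e-06), and its log2 fold was -0.52 ± 0.06 in A224T and -0.55 ± 0.06 in L854F.

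*Ns2* in set 1 was at 36.7, 39.4 and 36.9 CPM in D234G, 34.5, 34.2 and 35.2 CPM in R873W, and 36.1, 39.1 and 39.4 CPM in Y874C, against 42.6 and 44.4 CPM in WT 1 and 2. All strain libraries lay below both WT libraries. It fell by 0.33 ± 0.07 (SE) in R873W and by 0.21 ± 0.07 in D234G (edgeR adjusted p = 0.0012 and 0.033), and the fold of -0.19 ± 0.07 in Y874C did not pass (adjusted p = 0.080). The D234G call was lost without D234G 3 or without either WT library.

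*Ns3* (FBgn0266284, dm6 chrX:1461844-1464220) is the relative of yeast Lsg1, which acts on the exported 60S subunit in the cytoplasm, so it is not a nucleolar protein in yeast. It spanned 20.2 to 21.9 CPM in A224T, 20.4 to 22.4 in L854F and 22.4 to 23.3 in JmjC, against 24.8 to 26.7 CPM in WT 3 to 5, and 19.5 to 23.3 CPM in D234G, 21.8 to 22.4 in R873W and 23 to 26.9 in Y874C, against 26.0 and 27.0 CPM in WT 1 and 2. No strain library of *Ns3* in set 2 overlapped WT, while Y874C did in set 1. It fell by 0.30 ± 0.08 (SE) in D234G and by 0.26 ± 0.08 in R873W (edgeR adjusted p = 0.0086 and 0.013), and its folds were -0.30 ± 0.07 in A224T, -0.26 ± 0.07 in L854F, -0.17 ± 0.07 in JmjC (adjusted p = 0.087) and -0.12 ± 0.08 in Y874C (adjusted p = 0.37). The D234G and R873W calls of *Ns3* were lost without WT 1.

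By group mean, WT 3 to 5 had the highest level of 9 of the 10 genes, and *Ns3* was highest in WT 1 and 2. The lowest mean was in R873W for *Gar1*, *mbm*, *peng*, *Ns2* and *Nop60B*, in D234G for *Nopp140* and *Nnp-1*, in JmjC for *Fib* and *hoip*, and in A224T for *Ns3*. Neighbours in these orders often lay within their spread, as for *Nop60B* in R873W (36.6 ± 4.07 CPM), Y874C (38.0 ± 2.13), JmjC (38.3 ± 4.83) and D234G (38.6 ± 3.91, SD, n = 3 each). Tissue markers moved with some strains. Summed fat body markers were at 17988 to 22267 CPM in R873W and 14698 to 19104 in Y874C, against 7797 to 9152 CPM in WT 1 and 2, and muscle markers at 6955 to 7641 CPM in D234G, 6096 to 7412 in R873W and 5445 to 6820 in Y874C, against 4108 to 4690 CPM in WT 1 and 2. In JmjC, summed fat body markers were at 28920 to 36119 CPM, against 42103 to 50493 CPM in WT 3 to 5. Of these 6 markers, 2 were called lower and 1 higher in JmjC. The summed level of 5 photoreceptor markers lay below same-set WT in every strain. Most of that sum was *ninaE*, which averaged 18040 CPM in D234G and 29453 in WT 1 and 2. The sum was 23343 to 26985 CPM in A224T, 27712 to 29536 in L854F and 28132 to 29511 in JmjC, against 30094 to 32131 in WT 3 to 5. In set 1 it was 26207 to 27755 CPM in D234G, 28173 to 31802 in R873W and 31392 to 31985 in Y874C, against 37578 to 38100 in WT 1 and 2. By gene, 1 of the 5 was called lower and 2 higher in D234G, and 3 lower and 1 higher in R873W. In A224T, L854F, JmjC and Y874C, 3, 1, 2 and 1 were called lower and 0 higher. The summed level of 5 antennal markers was also lower in the set 1 strains and in JmjC. It was 343.8 to 397.6 CPM in D234G, 468.0 to 565.3 in R873W and 426.4 to 522.5 in Y874C, against 697.6 to 753.4 CPM in WT 1 and 2. In set 2 it was 909.2 to 992.0 CPM in JmjC, against 1047 to 1206 in WT 3 to 5, and L854F lay above WT, at 1301 to 1649. By gene, 1 antennal marker was called lower and 1 higher in D234G, 1 and 2 in R873W, 2 and 0 in Y874C, and 3 and 0 in JmjC. Neuron markers summed to 2845.7 to 3172.5 CPM in JmjC (3 of 5 called lower), against 3267 to 3922 in WT 3 to 5. In R873W they lay above WT (2 called higher). Glial sums lay below WT in JmjC and above it in the set 1 strains. Hemocyte sums were at 425.3 to 538.9 CPM in JmjC (2 called higher), against 320.9 to 340.1 in WT 3 to 5, and lay below WT in D234G. The shares of all genes called are given above. The part of these tissue markers in the lower levels was not tested.

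Strains of a set were then compared with each other, which uses no WT library. A224T against L854F gave 0 calls among the 10 genes by edgeR or by DESeq2, where 6.52% of all genes were called. The names were chosen from genes lower in both strains, so likeness between them was favoured and nothing is read from this. The folds between A224T and L854F spanned -0.28 (*hoip*, SE 0.20) to 0.17 (*peng*, SE 0.08), and *peng* alone had an unadjusted p under 0.05. JmjC and A224T likewise gave 0 calls by either tool, where 11.5% of all genes were called, with 3 genes (*Fib*, *Nnp-1* and *Nopp140*) at an unadjusted p under 0.05. JmjC against L854F gave 2 calls, where 28.1% of all genes were called. *Fib* was lower in JmjC by 0.53 ± 0.16 (edgeR adjusted p = 0.017, lost without JmjC 1 or L854F 2) and *peng* higher by 0.29 ± 0.08 (adjusted p = 0.011).

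Between set 1 strains 2 to 5 of the genes were called. Larger shares of all genes were called there too, and nothing is read from these counts. D234G against R873W gave 5 calls, where 43.9% of all genes were called. *mbm* (0.67 ± 0.14, SE, adjusted p = 0.00095), *Fib* (0.45), *Gar1* (0.43) and *peng* (0.27) were higher in D234G, and *Nopp140* was lower (-0.34 ± 0.09, adjusted p = 0.0049, edgeR). Leaving out single D234G or R873W libraries took the count to 3 or 4. D234G against Y874C gave 2 calls, where 36.1% of all genes were called: *Nopp140* lower (-0.32 ± 0.09) and *mbm* higher (0.50 ± 0.14, edgeR adjusted p = 0.0078 and 0.0082), and leaving out 1 library gave 1 to 4.

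R873W and Y874C change neighbouring residues of KDM5, and they differed in 4 of the genes, where 28.5% of all genes were called. R873W was lower in *Fib* (-0.52 ± 0.15), *Gar1* (-0.54 ± 0.12), *hoip* (-0.54 ± 0.19) and *peng* (-0.39 ± 0.08, SE), with edgeR adjusted p of 0.018, 0.0032, 0.044 and 0.0024. *Gar1* and *peng* kept their calls without any single library, and *Fib* and *hoip* did not. *mbm*, called in both strains against WT, did not pass between them (-0.17 ± 0.13, edgeR adjusted p = 0.34).

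The strain effects of the sets were also set side by side in the same fit, as the mean fold of A224T, L854F and JmjC minus the mean fold of D234G, R873W and Y874C. This difference contains the A224T and L854F folds from which names were chosen, so it is a description without p-values. It also contains the gap between WT 3 to 5 and WT 1 and 2, which for *Nop60B* was 0.82. Past the threshold were 3 of the 10 genes, where 18.3% of all genes were called, and nothing is read from that count. The difference was -0.68 ± 0.19 (SE) for *Fib*, with mean folds of -0.90 in set 2 and -0.22 in set 1. It was -0.67 ± 0.13 for *Nop60B*, with mean folds of -0.84 and -0.17, and -0.30 ± 0.08 for *Ns2*, with -0.54 and -0.24. Without WT 1 or without WT 2 only *Nop60B* was past the threshold, and *Fib* was also not past it without WT 3 or WT 4. The median over the 10 of this difference was -0.10 without WT 1 and -0.29 without WT 2, against -0.18 with all libraries.

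In the set 1 strains, other genes of the pathway that were called against same-set WT were nearly all called lower, though fewer were called than not. Of 94 other genes on 7 lists of snoRNP proteins, 40S and 60S assembly, RNA polymerase I, rRNA processing and the Myc network, 54 were called lower and 0 higher in A224T, 55 and 0 in L854F, and 44 and 2 in JmjC. The A224T and L854F counts come from the contrasts that chose the names, and JmjC shares their WT libraries. Nothing is read from the counts of these strains, in all or by list. In set 1, 22 were called lower and 1 higher in D234G, 43 and 2 in R873W, and 11 and 0 in Y874C. The shares of all genes called lower were 9.2% in A224T, 5.71% in L854F, 14.2% in JmjC, 10.7% in D234G, 18.8% in R873W and 5.93% in Y874C, and the counts by list stand beside the same shares. The median log2 fold over the 94 was -0.40 in A224T, -0.43 in L854F, -0.32 in JmjC, -0.21 in D234G, -0.32 in R873W and -0.13 in Y874C. In WT 3 to 5 against WT 1 and 2, 50 were called higher and 4 lower, with a median of 0.45. Of all 12093 genes, 1738 were called higher and 1595 lower there. WT 3 to 5 are the control in the contrasts that chose the names, and nothing is read from these calls.

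By list, the 29 genes of the small subunit processome and 40S assembly had 22 called lower in A224T, 21 in L854F, 14 in JmjC, 8 in D234G, 16 in R873W and 3 in Y874C. The 33 genes of 60S assembly had 23, 23, 22, 7, 16 and 5 called lower in the same order of strains. RNA polymerase I and its factors had 2, 2, 2, 1, 3 and 0 of 9 called lower, and the 17 other nucleolar and processing genes 6, 7, 2, 5, 6 and 1. *Tsr1*, a factor of late 40S maturation, was at 34.8 ± 0.282 CPM in A224T and 34.2 ± 0.867 in L854F, against 50.6 ± 0.180 CPM in WT 3 to 5 (SD, n = 3 each). The genes with the smallest adjusted p also included *CG2691* (log2 fold -0.75 in A224T and -0.79 in L854F), *CG4554* (-1.01 in A224T), *CG8939* (-0.77 in A224T and -0.67 in L854F), *CG12325* (-0.78 in L854F and -0.65 in JmjC), *CG11837* (-1.47 in JmjC) and *CG8545* (-0.65 in JmjC). *CG2691* and *Tsr1* were also higher in WT 3 to 5 than in WT 1 and 2, by 0.67 and 0.65, as were *CG5033* (0.90) and *Polr1A*, the largest subunit of RNA polymerase I (0.71).

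In R873W *eIF6*, which keeps the 60S subunit from joining too early, was at 11.1 ± 1.27 CPM, against 20.6 ± 0.514 CPM in WT 1 and 2 (SD, n = 3 and 2), and fell by 0.90 ± 0.14 on the log2 scale (SE, edgeR adjusted p = 6.8e-05). *CG9107* (-1.45) and *CG3071* (-0.80) were called beside it. *Mat1*, which stands on the 60S list but is known as an assembly factor of the CDK-activating kinase, fell in R873W (-1.37) and Y874C (-0.67). In D234G the genes with the smallest adjusted p were *CG13096* (-0.53), *CG8064* (-0.48), *Myc* (-0.72) and *drosha* (-0.44), the last a nuclease best known for microRNA processing. *Myc*, the transcription factor that drives ribosome assembly genes in flies, fell in D234G and Y874C (-0.58), and had folds of -0.10 and -0.08 in JmjC and R873W that did not pass. Its log2 fold was -0.17 in A224T and -0.45 in L854F. In Y874C, *Nlp*, a nucleoplasmin-like histone chaperone (-0.54), and *RpLP0-like* (-0.44) were also called lower.

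Between strains, 13 of the 94 genes were called higher and 2 lower in JmjC than in A224T, and 17 higher and 3 lower in JmjC than in L854F, where 11.5% and 28.1% of all genes were called in either direction. *CG8064* (0.62 over A224T and 0.57 over L854F), *TAF1B*, a factor of RNA polymerase I initiation (0.55 and 0.65), and *CG2691* (0.39 and 0.43) were higher in JmjC in both, *Mat89Ba* over A224T (0.72) and *Polr1A* over L854F (0.41). A224T and L854F differed in *CG11837* alone (-0.62), where 6.52% of all genes were called. In set 1, 30 of the 94 were called higher and 11 lower in D234G than in R873W, 12 lower and 6 higher in D234G than in Y874C, and 18 lower and 5 higher in R873W than in Y874C, where 43.9%, 36.1% and 28.5% of all genes were called. Those with the smallest adjusted p were as follows. *Rrp6*, a nuclease of the exosome, was higher in D234G than in R873W (0.92) and Y874C (0.63), *Mat1*, *CG6693* and *Polr1D* were higher in D234G than in R873W (1.01, 0.77 and 1.88), and *CG8064*, *CG13096* and *CG11583* were lower in D234G than in Y874C (-0.54, -0.41 and -0.64). *bys*, a 40S assembly factor (-0.54), *eIF6* (-0.76), *Mat1* (-0.71) and *CG3071* (-0.52) were lower in R873W than in Y874C. For the difference between the strain effects of the sets, given as a description, 21 of the 94 were past the threshold with a lower value in set 2 and 7 with a higher one. The smallest adjusted p belonged to *CG2691* (-0.47), *CG12325* (-0.64), *CG11837* (-1.17) and *pit* (-0.59).

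**Figure D4:**
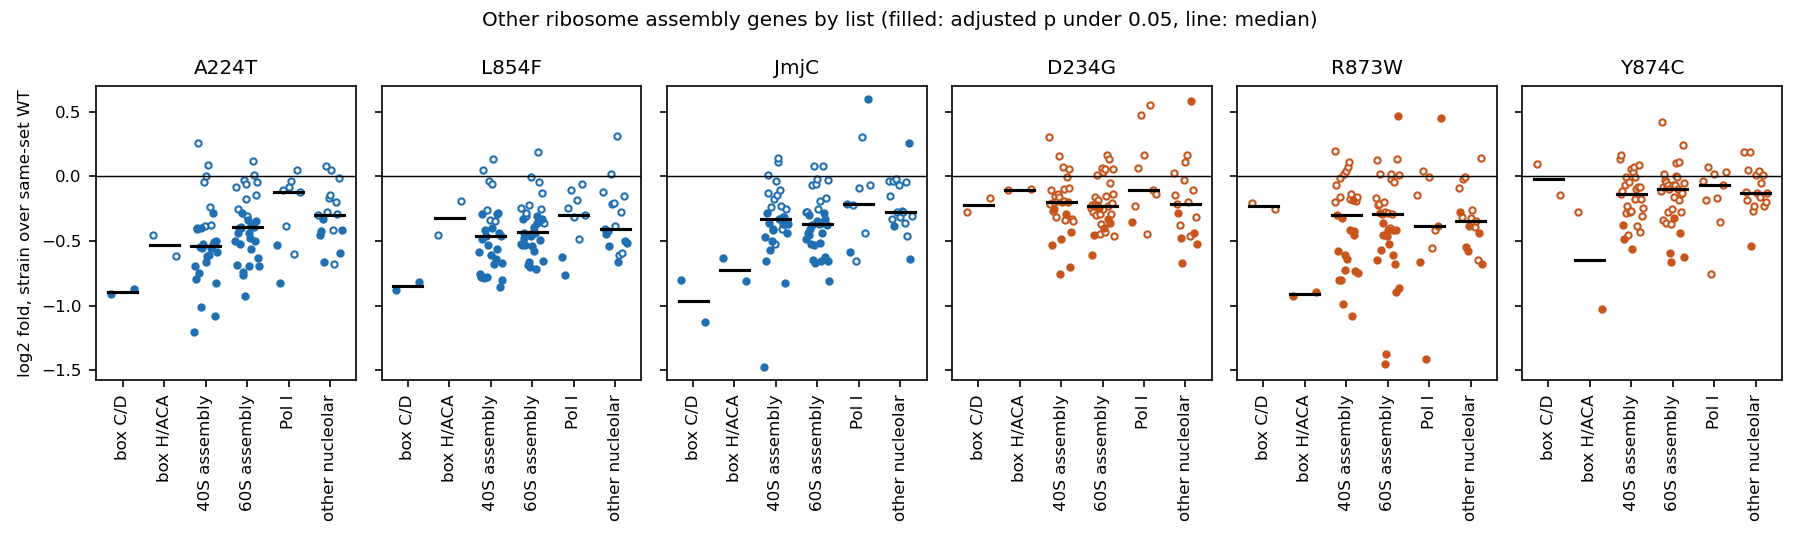
log2 fold over same-set WT of the other genes on 6 lists (points, one per gene; filled where adjusted p was under 0.05), by strain, with the list median as a line. In R873W 16 of 29 points of 40S assembly and 16 of 33 of 60S assembly are filled below 0, and in Y874C 3 and 5; nothing is read from the filling in the A224T and L854F panels.

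Likeness to the 10 genes was measured as Pearson's r over the 23 libraries with the mean standardised profile of the 10, after centring log2 CPM within each set. Over the 8209 other genes whose mean level reached 5 CPM, the 10 left out, the 6 most alike were *RpL14* (0.94), *CG8545* (0.92), *RpL27* (0.92), FBgn0034496 (0.91), *CG15019* (0.90) and *RpS16* (0.90). *RpL14*, *RpL27* and *RpS16* encode ribosomal proteins. These values share libraries and scaling and are descriptions only. *RpL14* averaged 500.2 ± 23.6 CPM in A224T, 502.1 ± 44.5 in L854F and 506.4 ± 33.1 in JmjC, against 725.9 ± 92.7 in WT 3 to 5, and 612.5 ± 5.80 in D234G, 588.0 ± 44.0 in R873W and 680.4 ± 24.2 in Y874C, against 846.0 ± 28.7 in WT 1 and 2 (SD, n = 3, WT 1 and 2 n = 2). *RpL14* was not called between WT 3 to 5 and WT 1 and 2 (log2 fold -0.22, edgeR adjusted p = 0.084). Nor were *RpL27* (0.17), FBgn0034496 (0.27) and *RpS16* (-0.19). *CG15019* (0.84) and *CG8545* (0.71) were called higher in WT 3 to 5 (edgeR adjusted p = 4.7e-06 and 4.0e-05). Of all genes, 27.6% were called in either direction there, and nothing is read from these calls.

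For the kdm5 knockdown, RNA and ribosome footprints were set side by side. Both immunoprecipitated and input libraries exist, and which of them gave the RNA values is not stated, so RNA and footprints may come from different cells of the head. Only the authors' deposited table of knockdown over control folds was used, so no value per library can be given. In that table *Kdm5*, listed under its older name *lid*, had log2 folds of -0.97 in RNA and -2.02 in footprints (authors' adjusted p = 2.1e-22 and 2.2e-45). All 10 assembly genes had an RNA fold below 0 in the authors' deposited table, and 5 passed its adjusted p of 0.05: *hoip* (-0.96), *Nop60B* (-0.72), *Fib* (-0.56), *Nopp140* (-0.49) and *Ns2* (-0.27). In the authors' deposited table, 10.7% of genes were called lower in RNA, and the median RNA fold was -0.51 over the 10 and -0.042 over all genes. *Gar1* (-0.58), *mbm* (-0.53), *Nnp-1* (-0.44), *Ns3* (-0.32) and *peng* (-0.04) did not pass in the authors' deposited table.

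Footprints were called lower for 2 of the 10 in the authors' deposited table, where 17.9% of genes were called lower. That count is near the share of all genes, and nothing is read from it. The 2 were *Fib* (-0.91, authors' adjusted p = 0.00083) and *hoip* (-0.79, authors' adjusted p = 0.010), the box C/D genes among the 10. The deposited footprint folds were -0.45 for *Nop60B*, -0.37 for *Nopp140*, -0.27 for *Gar1*, -0.13 for *Ns2*, -0.10 for *mbm*, -0.09 for *peng*, 0.05 for *Ns3* and 0.33 for *Nnp-1*, none of which passed. The footprint fold minus the RNA fold of the deposited table was above 0 for 8 of the 10 and below 0 for *Fib* (-0.35) and *peng* (-0.05). Its median was 0.22 over the 10 and -0.017 over all genes, with no test of that difference.

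The deposited column named for translation efficiency is not used as such: across 6253 genes with mean counts of 100 or more it had r = 0.70 with the footprint fold and r = 0.47 with the footprint fold minus the RNA fold. For all 10 genes it was nearer the footprint fold. One of the 5 listed *Nop60B* transcripts differed from the others in the authors' deposited table, with a footprint fold of -0.73 (authors' adjusted p = 0.027). Of the 94 other pathway genes, the authors' deposited table called 22 lower and 0 higher in RNA, and 3 lower and 4 higher in footprints. Of all genes, 10.7% were called lower in RNA and 17.9% lower in footprints. The shares of all genes called higher are not given here, so nothing is read from the calls in that direction.

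**Figure D5:**
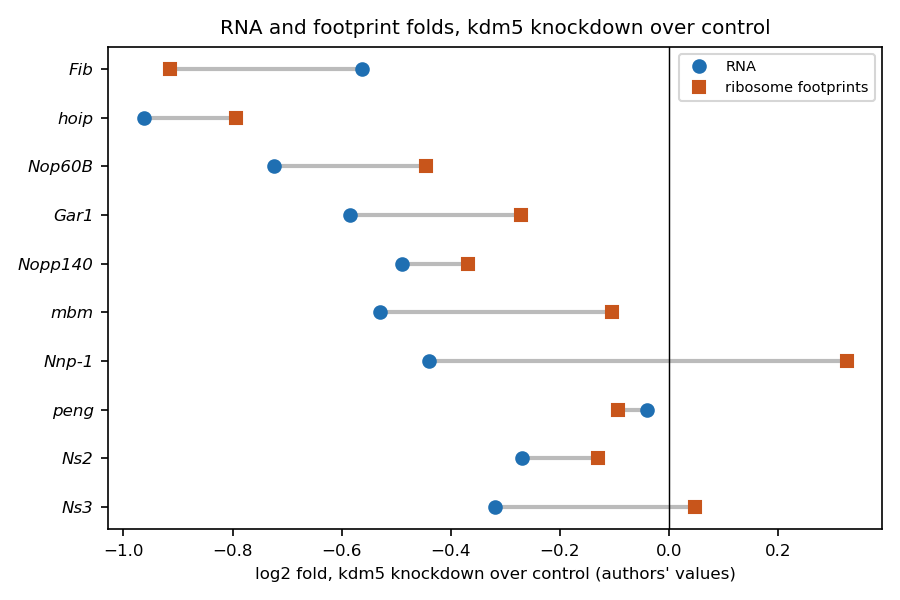
log2 fold of kdm5 knockdown over control (x axis) for RNA (circles) and ribosome footprints (squares) of the 10 genes, from the authors' deposited table, which gives no error. All circles lie left of 0; *Nnp-1* (0.33) and *Ns3* (0.05) have squares right of 0.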

How the data were processed

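Per the submitters' processing notes, the authors' tools included STAR, featureCounts, fastp and DESeq2, with dm6 as the build. Tool versions, annotation release and strand setting are not stated there; the kit kept strand, per the labels. The deposited head table holds whole-number read counts for 17830 genes and 6052 further entries for transposable elements. Those took 0.764 to 1.52% of each library and entered no test. The deposited Ribo-Seq table holds log2 folds per transcript by the authors, their adjusted p-values, and mean counts per transcript, per the file headers. Which libraries enter it is not stated, and the count test designed for Ribo-Seq was not run because no counts per library were analysed. For each gene the transcript with the highest mean RNA count was taken (13963 genes of 30704 transcripts).

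Head counts were fitted with edgeR 4.0.16 (limma 3.58.1, R 4.3.3) in 1 means model of 8 groups, with WT divided by lncRNA:roX2 at 5 CPM. TMM scaling, filterByExpr, glmQLFit and glmQLFTest were used, and p-values were adjusted by Benjamini-Hochberg over 12093 genes. Every adjusted p of a head gene is from this edgeR fit, folds are log2 with SE, and CPM are TMM-scaled with SD. DESeq2 1.42.0, other scalings, no filter, other WT libraries, smaller fits, the replicate block and leaving out each library were alternatives. Tables and figures used Python 3.11.15, pandas 2.3.3, numpy 2.4.6 and matplotlib 3.10.9. On simulated counts with the A224T design, 65.3% of genes changed by 1 log2 unit and 37.1% of those changed by 0.5 were called; with the D234G design these were 58.8% and 28.1%. Replicates differed by more than sampling noise, with chi-square values of 7.33 to 80.8 per degree of freedom.

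The 10 genes, the lists, the tests and the division into sets were chosen with earlier results of these data known. Named genes are the 10 in every comparison, at most 4 called list genes per comparison with the smallest adjusted p, the 6 most alike genes, core proteins of the 2 snoRNP classes, and genes that overlap the 10; the last 2 kinds, and *Myc*, *Mat1*, *CG2691*, *Tsr1*, *CG34396*, *dod* and lncRNA:roX1 where named beyond that rule, were picked after their values were seen. Symbols came from the tables given (17751 of 17830 identifiers). No gene lengths were used, so levels are not compared between genes. Sequences of these genes were not used here.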

Additional observations from a re-analysis of the deposited data

Results flagged for a closer look

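The strain effects of the 2 sets of libraries stood apart for 3 genes past the threshold of edgeR's interaction test. The value contains the A224T and L854F folds from which *Fib* and *Ns2* were named, so a lower value in set 2 was favoured by the choice, and it is given as a description only. The value is the mean log2 fold of A224T, L854F and JmjC over WT 3 to 5, minus the mean log2 fold of D234G, R873W and Y874C over WT 1 and 2. It was -0.68 for *Fib*, -0.67 for *Nop60B* and -0.30 for *Ns2*. All 3 strains of set 2 had lower folds of *Nop60B* (-0.97 to -0.77) than the 3 strains of set 1 (-0.22 to -0.13), and of *Ns2* (-0.55 to -0.52, against -0.33 to -0.19). For *Fib* they were -1.20 to -0.67 in set 2 and -0.54 to -0.02 in set 1. Only *Nop60B* was past the threshold without WT 1 or without WT 2. The WT libraries of set 2 were themselves higher than those of set 1 in *Nop60B* (0.82) and *Ns2* (0.43), so the part of the strains and of the WT libraries in this difference cannot be told apart.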

How the results depend on the processing

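The replicate numbers did not pair the libraries: deviations of same-numbered libraries correlated above 0.1 in 9 of 63 pairs (-0.61 to 0.311). With the replicate block WT 3 stands alone for WT of set 2, so no counts are given for A224T, L854F and JmjC. In set 1 the genes of the 10 called lower with the block numbered 4 in D234G, 8 in R873W and 1 in Y874C. Of all genes, 1212, 2154 and 655 were called lower there, against 1295, 2270 and 717 without the block. D234G 1 and 2 are shallow, and the D234G count was 5 without D234G 1, 6 without D234G 2, 3 without D234G 3, 2 without WT 1 and 3 without WT 2.

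Counts over all genes with other choices of WT libraries are given above. Against all 5 WT libraries the counts of genes called were 5 in L854F, 5 in JmjC, 8 in D234G and 7 in Y874C. Against WT of the other set the counts were 3 in A224T, 1 in L854F, 3 in JmjC, 8 in D234G and 7 in Y874C. With library size only they were 5 in JmjC, 2 in Y874C, 1 in JmjC against A224T, 4 in JmjC against L854F, 7 in R873W against Y874C and 1 in the difference between sets. With that scaling the median of all genes was 0.12 in A224T (0.014 with TMM), 0.17 in JmjC (0.0041), -0.080 in R873W (0.019), 0.18 in D234G against R873W (0.086), 0.11 in JmjC against L854F (-0.014) and 0.11 in the difference between sets (-0.034). It gave 598 genes lower and 1756 higher in A224T (1112 and 1023 with TMM), 783 and 2853 in JmjC (1720 and 1380), 492 and 803 in L854F (690 and 681) 3061 and 1756 in R873W (2270 and 2290), 2006 and 1359 between WT sets (1595 and 1738), 277 and 540 in A224T against L854F (424 and 364), 426 and 903 in JmjC against A224T (725 and 660), 1066 and 2572 in JmjC against L854F (1839 and 1559), 1447 and 4019 in D234G against R873W (2032 and 3278), 2638 and 1411 in R873W against Y874C (1712 and 1732) and 581 and 1996 in the difference between sets (1106 and 1101). DESeq2 called 3 in D234G and 2 in Y874C, and a fit of only the 2 groups 1 in D234G and 0 in Y874C. D234G 2 alone gave 2 calls, and the fit without a filter gave 4 in D234G against Y874C.

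Leaving out 1 library gave 2 to 6 calls in D234G, 5 to 9 in R873W, 0 to 2 in Y874C, 4 to 7 between the WT sets, 1 to 3 in JmjC against L854F, 3 to 4 in D234G against R873W, 1 to 4 in D234G against Y874C, 2 to 6 in R873W against Y874C and 1 to 4 in the difference between sets. In A224T, L854F and JmjC it gave 7 to 8, 7 to 10 and 6 to 7.

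Signs turned for 27 folds, none of them called under the setting that turned it, though *Nop60B*, *mbm*, *Nopp140*, *Nnp-1* and *Gar1* had calls of their own against same-set WT (*Gar1* not in A224T). Against WT of the other set they were *Gar1* 0.25, *mbm* 0.12, *peng* 0.074 and *Nop60B* 0.043 in A224T, *Gar1* 0.11, *mbm* 0.040 and *Nop60B* 0.046 in L854F, and *Nopp140* 0.083, *Nnp-1* 0.063, *Gar1* 0.12, *mbm* 0.22 and *peng* 0.19 in JmjC. *peng* in JmjC was 0.090 with library size only and 0.027 against all WT. In D234G, leaving out 1 library gave *hoip* -0.46 to 0.069, *mbm* -0.28 to 0.12 and *Nop60B* -0.30 to 0.019, with the highest of each without WT 2. *Fib* was 0.0093 with D234G 3 alone, and *hoip* 0.088 and *mbm* 0.0027 with D234G 2 alone. In Y874C, it gave *Fib* -0.11 to 0.091, *hoip* -0.33 to 0.24 and *Nop60B* -0.34 to 0.020; *hoip* was 0.018 with the replicate block. Between the WT sets, *Ns3* was 0.049 with the replicate block, and *hoip* was -0.016 to 0.55 when 1 library was left out. Where no value shows it, the cause was not tested.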
